A study of Mus musculus with 4 samples.

Results

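The transcripts of 10 genes of autophagy and of the TFEB family of transcription factors were examined in polymorphonuclear myeloid-derived suppressor cells (PMN-MDSCs), which are immature neutrophil-like cells with immunosuppressive activity. The genes were taken by name, namely *Tfeb*, *Tfe3*, *Mitf*, *Atg3*, *Atg5*, *Atg7*, *Becn1*, *Map1lc3a*, *Map1lc3b* and *Sqstm1*, and all 10 were found among the 28585 genes listed. The bulk RNA sequencing data consist of 4 libraries of splenic PMN-MDSCs taken on postnatal day 7, on a C57BL/6J background. In 2 libraries (*Dhps*ΔLysm, labelled Dhps cko) the mice carried *Dhps* fl/fl together with *Lysm* cre. The other 2 libraries (*Dhps* fl/fl, labelled Dhps flox) came from mice with the floxed alleles and no mention of Cre. *Lysm* cre is active in neutrophils, monocytes and macrophages, so its activity is not restricted to PMN-MDSCs. The study defined these cells as CD11b+Ly6C lo/-Ly6G+, the gate of its cytometric sorting. It cautions that this gate may take in polymorphonuclear cells as well as PMN-MDSCs. Its account of the RNA sequencing mentions no density gradient. Nothing in the labels says that the libraries of a genotype came from separate animals, and the p-values given here therefore measure only the spread between these libraries, which may be technical.

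Autophagy encloses cytoplasm in a double membrane and delivers it to the lysosome for breakdown. ATG7 and ATG3 act as E1-like and E2-like enzymes that join LC3 to a membrane lipid, and the conjugate of ATG12 and ATG5 directs that step. TFEB, TFE3 and MITF are related transcription factors that bind E-box elements and switch on lysosomal and autophagy genes, and mTORC1 holds TFEB and TFE3 in the cytoplasm when nutrients are plentiful. DHPS carries out the first step in forming hypusine on eIF5A, using spermidine, and hypusinated eIF5A is known to support the translation of TFEB in B cells and of ATG3 in several cell types. The mRNA levels measured here do not report on translation, and the question addressed was whether the mRNAs themselves differed between genotypes.

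No difference between genotypes in the mRNAs of the 10 genes passed the test, and for most of them the estimate was small. None of the 10 had an adjusted p under 0.05 by limma with Benjamini-Hochberg adjustment over all 17948 genes tested (smallest 0.742, for *Atg5*), where 1 gene did (0.00557% of those tested). None of the 10 had an unadjusted p under 0.05 either, where 4.72% of all genes tested did with a higher and 2.28% with a lower level in *Dhps*ΔLysm. *Tfeb* in *Dhps*ΔLysm was at 105% of its level in *Dhps* fl/fl, with a 95% interval from 90.5% to 123%, and *Atg3* was at 111% with an interval from 95.6% to 128%. The log2 fold change, computed from FPKM with 0.1 added, had a median of 0.04 over the 10 genes and of 0.01 over all genes tested. Its absolute value had a median of 0.06 over the 10 genes, against 0.10 over genes that averaged 1 FPKM or more, among which were 9 of the 10.

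The values were FPKM, that is, fragments scaled by transcript length and by all mapped fragments, rounded by the authors to 2 decimals. They summed to between 304281 and 319286 per library, and between 10611 and 10729 genes reached 1 FPKM. Depths estimated from the spacing of low values lay between 29900000 and 32000000 fragments. Neutrophil genes dominated the libraries, the summed level of 12 neutrophil markers being between 73002 and 79945 FPKM, and the lowest of them averaged 172 FPKM. Markers of other cells summed to far less, and those of macrophages, B cells, T cells and eosinophils were higher in both *Dhps*ΔLysm libraries. The summed level of 10 macrophage markers was 211 and 216 FPKM in *Dhps*ΔLysm and 174 and 169.9 FPKM in *Dhps* fl/fl, and 7 of the 10 were higher without overlap, as were 20.0% of all genes tested. That of 8 B cell markers was 65.1 and 67.6 against 41.6 and 50.9 FPKM, with *Ighm* the largest contributor, and 6 of the 8 were higher without overlap. That of 8 T cell markers was 16.9 and 14 against 11.4 and 7.62 FPKM, with 4 of the 8 higher without overlap. That of 6 eosinophil markers, mostly *Ear2*, was 98.7 and 94.0 against 80.2 and 81.6 FPKM, with 5 of the 6 higher without overlap. That of 8 erythroid markers, mostly hemoglobin, was the largest of these, ranging from 466 to 690.1 FPKM with overlap. A set of 4 Y-linked genes summed to 7.07 and 8.07 FPKM in *Dhps*ΔLysm and to 17.6 and 15.6 FPKM in *Dhps* fl/fl, and all 4 were lower in *Dhps*ΔLysm without overlap. The labels do not give the sex of the pups, and a difference in sex between these libraries cannot be told apart from genotype, which bears on X-linked *Tfe3* too. In bulk libraries, fewer cells of a type and less RNA per cell cannot be told apart.

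Floxed *Dhps* and the other genes of the hypusine pathway gave the setting for the comparison. *Dhps*, whose product makes deoxyhypusine, reached 2.38 and 2.59 FPKM in the *Dhps*ΔLysm libraries against 3.57 and 3.11 FPKM in the *Dhps* fl/fl libraries. The genotypes did not overlap, the log2 fold change was -0.41 (SE 0.13, unadjusted p = 0.0256), and the adjusted p from limma was 0.629. *Dohh*, which completes hypusine, was at 2.61 and 2.19 against 1.96 and 2.15 FPKM. *Eif5a*, the substrate, was at 111 and 107 against 98.8 and 108 FPKM, and the genotypes overlapped. Its paralog *Eif5a2* was at 0.19 and 0.16 against 0.02 and 0.19 FPKM, with little precision at such low levels. A value per gene does not show which exons of *Dhps* were read.

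The 10 genes spanned a wide range of levels in PMN-MDSCs. FPKM are scaled by length, so levels of different genes can be set against each other roughly. *Sqstm1* was the most abundant, at a mean of 53.0 FPKM over the 4 libraries, above 97.7% of the genes listed. It was followed by *Atg3* at 26.7, *Map1lc3b* at 21.5, *Atg7* at 18.9, *Becn1* at 18.9, *Atg5* at 13.7, *Tfe3* at 11.6, *Tfeb* at 9.17 and *Map1lc3a* at 8.81 FPKM. *Mitf* was last, at 0.735 FPKM, above 59.7% of the genes listed. The ranges over the 4 libraries overlapped between *Atg7* and *Becn1*, between *Atg5* and *Tfe3*, and between *Tfeb* and *Map1lc3a*, and these neighbours were not separated beyond their spread. The other neighbours in the order did not overlap. The spread between libraries does not cover bias particular to a gene, such as its transcript models or overlapping exons, so the order is approximate.

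**Figure D1:**
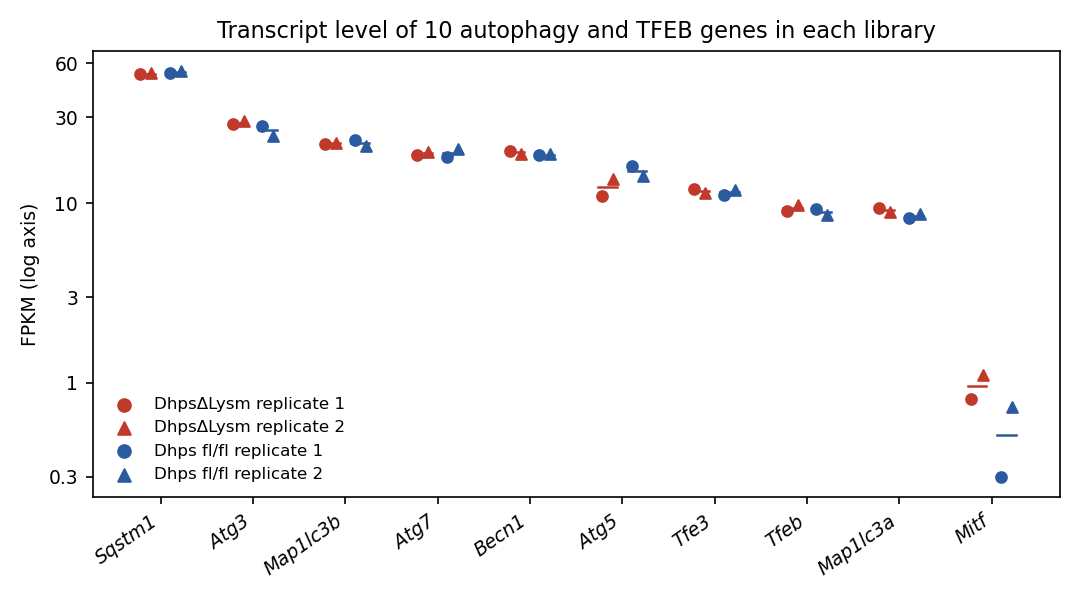
FPKM of the 10 genes on a log axis, ordered by their mean over the 4 libraries. Points are single libraries (red, *Dhps*ΔLysm; blue, *Dhps* fl/fl; circles, replicate 1; triangles, replicate 2) and horizontal lines are the mean of each genotype. Relative to their level, the libraries spread most for *Mitf*, between 0.30 and 1.10 FPKM, and next for *Atg5*, between 10.9 and 16.1 FPKM.

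The E-box that TFEB, TFE3 and MITF bind has the core CACGTG, and the lysosomal element contains the longer form TCACGTGA. Both letter strings read the same on either strand, and the longer contains the core. RefSeq promoter windows of 300 bases (250 before to 50 after the start site, GRCm38.p6) were found for 8 of the 10 genes, *Becn1* and *Map1lc3a* not being matched. The core was present for *Atg3*, *Atg5* and *Atg7*, and the longer form for *Atg3* alone. Of all 27025 genes in the table, 8.09% held the core and 1.125% the longer form in at least 1 window, as did 7.15% and 0.974% of its 32851 windows. The window of *Atg3* (chr16:45158579-45158878, plus strand) is shown whole because *Atg3* is both an autophagy gene and a known client of hypusinated eIF5A, and capitals mark its 2 cores, of which the second is the longer form and begins 72 bases before the start site.
Atg3: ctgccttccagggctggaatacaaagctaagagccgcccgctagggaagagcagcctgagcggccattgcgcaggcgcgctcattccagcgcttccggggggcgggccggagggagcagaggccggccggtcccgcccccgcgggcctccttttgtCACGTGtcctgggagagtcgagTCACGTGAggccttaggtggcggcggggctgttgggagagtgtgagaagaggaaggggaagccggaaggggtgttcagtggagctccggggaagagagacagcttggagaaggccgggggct

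The *Atg5* (chr10:44268313-44268342) and *Atg7* (chr6:114670952-114670981) matches are shown within 30 bases, and the *Atg7* window belongs to an internal start site of that gene. They begin 14 and 132 bases before the start site, respectively. For comparison, the longer form is shown from *Nrbf2* (chr10:67285472-67285501) and *Cln3* (chr7:126583340-126583369), and the core from *Sgsh* (chr11:119355522-119355551), all on the minus strand. *Nrbf2* belongs to the lipid kinase complex, and *Cln3* and *Sgsh* are lysosomal genes. The 3 are shown because their levels are given further on, and capitals mark the match in each.
Atg5: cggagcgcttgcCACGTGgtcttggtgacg
Atg7: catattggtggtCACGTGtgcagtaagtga
Nrbf2: gacccggctcaTCACGTGAcagccgccgcc
Cln3: cacgggtactgTCACGTGAcccccaacctg
Sgsh: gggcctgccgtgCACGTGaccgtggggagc

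Among the transcription factors, *Tfeb* (ENSMUSG00000023990, chr17:47737030-47792419, plus strand, GRCm38) measured 9.06 and 9.77 FPKM in replicates 1 and 2 of *Dhps*ΔLysm, and 9.26 and 8.60 FPKM in those of *Dhps* fl/fl. The genotypes overlapped. The log2 fold change was 0.08 (SE 0.09, 95% interval -0.14 to 0.29) and the adjusted p from limma was 0.892. It was 0.02 without *Dhps*ΔLysm replicate 2 or without *Dhps* fl/fl replicate 2, and 0.13 without replicate 1 of either genotype. *Tfe3* (ENSMUSG00000000134, chrX:7762560-7775202, plus strand), which shares most of its targets with *Tfeb*, had 11.98 and 11.4 FPKM in *Dhps*ΔLysm and 11.1 and 11.9 FPKM in *Dhps* fl/fl. These values overlapped too, with a log2 fold change of 0.02 (SE 0.08, 95% interval -0.17 to 0.22) whose sign turned when the libraries were scaled to the same sum. Patterns over the 4 libraries were compared with those of 107 other autophagy and TFEB-related genes averaging 1 FPKM or more. The nearest to *Tfeb* was *Rheb*, which encodes the GTPase that activates mTORC1 (root mean square distance of centred log2 values 0.033). *Ncoa4*, the cargo receptor for ferritin, followed (0.038). Some gene must be nearest, and with 4 values a gene this does not show shared regulation, which was not tested here or for *Atg3* below.

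*Mitf* (ENSMUSG00000035158, chr6:97807052-98021349, plus strand), best known from pigment cells, mast cells and osteoclasts, showed the largest fold of the 10 genes. It measured 0.81 and 1.10 FPKM in *Dhps*ΔLysm, compared with 0.30 and 0.73 FPKM in *Dhps* fl/fl. The genotypes did not overlap, but the *Dhps* fl/fl libraries stood further apart from each other than the nearest libraries of the 2 genotypes did. The log2 fold change was 0.86 (SE 0.42, 95% interval -0.21 to 1.93), and limma gave an unadjusted p of 0.0938 and an adjusted p of 0.768. Without *Dhps* fl/fl replicate 1 the log2 fold change was 0.33, and without replicate 2 of that genotype it was 1.39. With a pseudocount of 1 FPKM it was 0.38. At the estimated depths, 0.30 FPKM corresponds to between 10 and 45 fragments, depending on which coding transcript is counted, so the gene was measured with little precision in that library.

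The lowest library for *Mitf*, *Dhps* fl/fl replicate 1, was also the lowest for 4 of 6 mast cell and basophil markers. *Mcpt8*, a basophil protease, reached 6.11 and 6.83 FPKM in the *Dhps*ΔLysm libraries against 1.78 and 5.13 FPKM in the *Dhps* fl/fl libraries. *Prss34*, another basophil protease, was at 8.05 and 9.76 against 2.40 and 9.36 FPKM, and *Cpa3*, mast cell carboxypeptidase, at 1.02 and 1.53 against 0.38 and 1.02 FPKM. *Kit* did not follow this pattern, at 4.12 and 3.50 against 3.89 and 4.69 FPKM, nor did *Ms4a2*, at 1.02 and 0.32 against 1.14 and 1.08 FPKM. *Gata2* was at 0.45 and 0.26 against 0.17 and 0.32 FPKM. Of the 6 mast cell and basophil markers that were found, which summed to 20.8 and 22.2 against 9.76 and 21.6 FPKM, 1 was higher and 1 lower in *Dhps*ΔLysm without overlap, shares close to the 20.0% and 16.0% of all genes tested, and none was at 0 in all libraries. The part of these cells, and of macrophages, in the *Mitf* values was not tested.

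**Figure D2:**
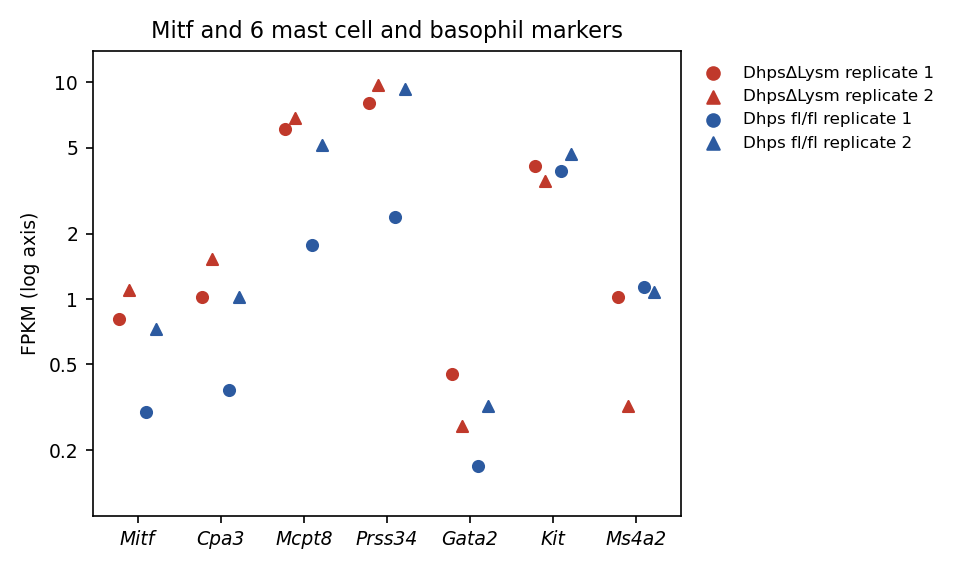
FPKM of *Mitf* and of 6 mast cell and basophil markers on a log axis, with 1 point per library (colours for genotype, symbols for replicate). *Dhps* fl/fl replicate 1 (blue circles) is the lowest library for *Mitf*, *Cpa3*, *Mcpt8*, *Prss34* and *Gata2*, but not for *Kit* or *Ms4a2*.

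Among the enzymes of LC3 lipidation, *Atg3* (ENSMUSG00000022663, chr16:45158785-45188538, plus strand) had 27.5 and 28.5 FPKM in *Dhps*ΔLysm and 27.0 and 23.8 FPKM in *Dhps* fl/fl. Both *Dhps*ΔLysm libraries lay above both *Dhps* fl/fl libraries, by a margin that was smaller than the distance between the *Dhps* fl/fl libraries. The log2 fold change was 0.14 (SE 0.08, 95% interval -0.06 to 0.35) and limma gave an adjusted p of 0.782. It ranged from 0.05 without *Dhps* fl/fl replicate 2 to 0.24 without *Dhps* fl/fl replicate 1. *Vamp8*, an endosomal SNARE that takes part in fusion with the lysosome, had the pattern nearest to that of *Atg3* over the 4 libraries (distance 0.023), at 32.4 and 32.5 against 31.0 and 28.2 FPKM, and *Rheb* came next (0.041). *Atg7* (ENSMUSG00000030314, chr6:114643097-114860614, plus strand), the E1-like enzyme, measured 18.5 and 19.4 FPKM in *Dhps*ΔLysm, compared with 18.0 and 19.9 FPKM in *Dhps* fl/fl. Its *Dhps*ΔLysm values lay between its *Dhps* fl/fl values. The log2 fold change was 0.00 (SE 0.08, 95% interval -0.20 to 0.20), and its sign differed between scalings.

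*Atg5* (ENSMUSG00000038160, chr10:44268358-44364291, plus strand), the partner of ATG12, was the gene with the lowest *Dhps*ΔLysm level relative to *Dhps* fl/fl. It reached 10.9 and 13.5 FPKM in the *Dhps*ΔLysm libraries against 16.1 and 14.1 FPKM in the *Dhps* fl/fl libraries. The genotypes did not overlap, although the nearest libraries lay within 1 FPKM of each other. The log2 fold change was -0.31 (SE 0.13, 95% interval -0.65 to 0.03), and limma gave an unadjusted p of 0.0648 and an adjusted p of 0.742. It was -0.16 without *Dhps*ΔLysm replicate 1 and -0.22 without *Dhps* fl/fl replicate 1, and it remained below 0 without each library in turn. Of the other 4 genes of ATG12 conjugation, whose median was -0.03, *Atg12* itself was at 5.64 and 6.09 against 6.01 and 6.03 FPKM. The gene for its membrane-targeting partner, *Atg16l1*, was lower without overlap, at 5.34 and 5.31 against 5.67 and 6.04 FPKM, and the related *Atg16l2*, the most abundant, was at 9.93 and 9.44 against 9.04 and 10.6 FPKM. *Atg10*, the E2-like enzyme for ATG12, was at 1.2 and 1.23 against 0.78 and 1.32 FPKM. None of the 4 had an unadjusted p under 0.05, and the 3 besides *Atg16l2* are given after their values were seen.

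Upstream in the pathway, *Becn1* (ENSMUSG00000035086, chr11:101285952-101302286, minus strand) encodes beclin 1, a subunit of the lipid kinase complex that marks the site of autophagosome formation. It had 19.6 and 18.8 FPKM in *Dhps*ΔLysm and 18.5 and 18.7 FPKM in *Dhps* fl/fl. The genotypes did not overlap, and the log2 fold change was 0.05 (SE 0.06, 95% interval -0.11 to 0.21). In the GENCODE M21 annotation 43.9% of its exon bases are overlapped by *Cntd1* on the opposite strand, and strand use in counting is not given in the sources used here. *Cntd1* itself was listed at 0.66 and 0.46 against 0.76 and 0.56 FPKM.

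Of the LC3 genes, *Map1lc3b* (ENSMUSG00000031812, chr8:121590361-121598760, plus strand) was the more abundant, with 21.4 and 21.6 FPKM in *Dhps*ΔLysm and 22.3 and 20.7 FPKM in *Dhps* fl/fl. *Map1lc3a* (ENSMUSG00000027602, chr2:155276297-155278073, plus strand) was at 9.37 and 8.89 against 8.26 and 8.72 FPKM. *Map1lc3b* overlapped between genotypes (log2 fold change 0.00, SE 0.07) while *Map1lc3a* was higher in both *Dhps*ΔLysm libraries (0.10, SE 0.08, 95% interval -0.10 to 0.31). *Sqstm1* (ENSMUSG00000015837, chr11:50199366-50210827, minus strand) encodes p62, a receptor that links ubiquitinated cargo to LC3 and is itself consumed by autophagy. It measured 52.2 and 52.6 FPKM in *Dhps*ΔLysm, compared with 52.8 and 54.3 FPKM in *Dhps* fl/fl, a log2 fold change of -0.03 (SE 0.05) with a 95% interval from -0.16 to 0.10. This was the narrowest interval of the 10 genes. *Mrnip*, on the opposite strand, overlaps 17.3% of the exon bases of *Sqstm1* and was listed at between 0.80 and 1.46 FPKM.

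In all, 4 of the 10 genes (*Mitf*, *Atg3*, *Becn1* and *Map1lc3a*) were higher in *Dhps*ΔLysm without overlap, where 20.0% of all genes tested were. *Atg5* and *Sqstm1* were lower without overlap, where 16.0% of all genes tested were, and 36.0% did not overlap in either direction. Of the 10 genes, 7 lay above 0 and 3 below it, and 5 of each when the libraries were scaled to the same sum. For 7 of the 10 genes the 95% interval lay within a 1.25-fold change in either direction, as it did for 34.3% of genes averaging 1 FPKM or more. It did so too for 29 of the 54 further autophagy genes and 14 of the 26 TFEB target genes described below. Intervals are wider at low levels, and 9 of the 10 genes averaged 8.81 FPKM or more, so the share of 34.3% is not a like comparison. It lay within a 1.5-fold change for 8 of the 10 (75.7% of those genes) and within a 2-fold change for 9 of the 10 (92.7%), *Mitf* being the exception.

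**Figure D3:**
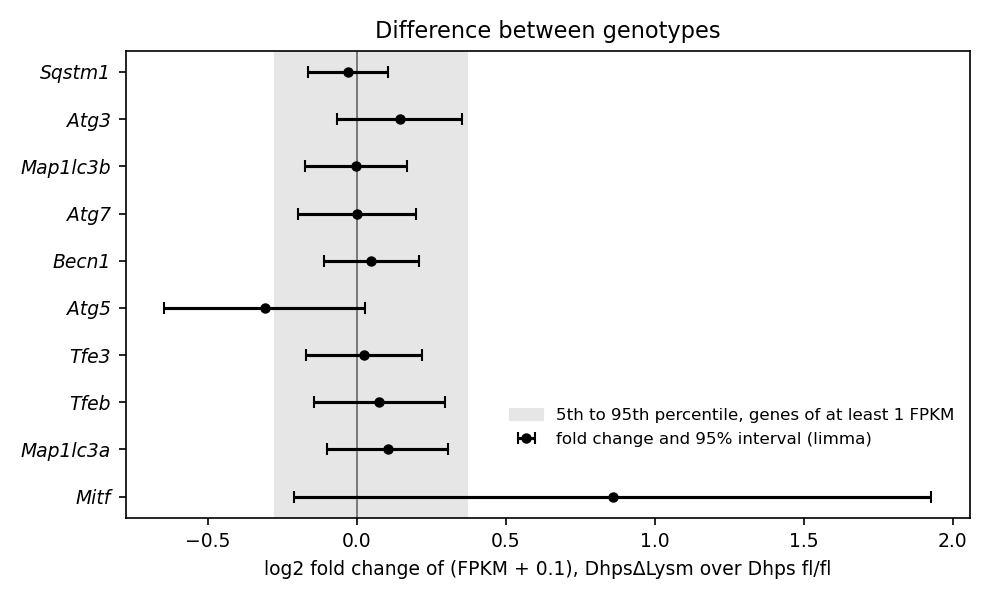
Log2 fold change of (FPKM + 0.1) in *Dhps*ΔLysm over *Dhps* fl/fl for the 10 genes, with 95% intervals from limma. The grey band runs from the 5th to the 95th percentile of the fold changes of genes averaging 1 FPKM or more (-0.27 to 0.37). All 10 intervals include 0, and only the points of *Mitf* (0.86) and *Atg5* (-0.31) lie outside the band.

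Further genes of autophagy were grouped by the step in which they act. Over 54 genes in 7 lists the median log2 fold change was 0.00, 28 were above 0 and 26 below it. With libraries scaled to the same sum the median was -0.03, with 19 above 0 and 35 below it. As deposited, 8 were higher and 7 lower without overlap, where 20.0% and 16.0% of all genes tested were. None had an adjusted p under 0.05 by limma. At an unadjusted p under 0.05, 2 were higher and 0 lower, where 4.72% and 2.28% of all genes tested were. The initiation complex around ULK1, which starts autophagosome formation, had a median of -0.01 over 5 genes, and *Atg101*, its most abundant, was at 24.3 and 23.5 against 20.2 and 24.2 FPKM. The lipid kinase complex around VPS34 had a median of 0.02 over 7 genes, and *Nrbf2* was at 11.7 and 12.9 against 11.7 and 9.73 FPKM. Genes of membrane supply had a median of -0.01 over 9 genes, and *Atg9a*, the scramblase of the growing membrane, was at 33.1 and 28.03 against 28.3 and 33.5 FPKM. Over 10 cargo receptors the median was 0.00, and 0 were higher and 3 lower without overlap (20.0% and 16.0% over all genes tested). *Bnip3l*, a receptor for mitochondria, was at 61.0 and 65.1 against 66.6 and 59.97 FPKM. Over 12 genes of autophagosome fusion the median was 0.01, and 3 were higher and 1 lower without overlap. *Rab7*, the late endosomal GTPase, was at 191 and 198 against 182 and 183 FPKM. Without overlap, the initiation and lipid kinase lists each held 1 lower and 0 higher genes, and membrane supply 1 higher and 0 lower. None of these 5 lists held a gene with an unadjusted p under 0.05.

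The list of GABARAP genes and ATG4 proteases, which prepare and trim the LC3 family, was the one whose genes all lay above 0, as they did under each of the 3 other scalings tried. Its 7 genes lay at a median of 0.12 on the log2 scale, and 4 were higher in *Dhps*ΔLysm without overlap, as were 20.0% of all genes tested. *Gabarap*, an LC3 relative and the most abundant, reached 149.9 and 151 FPKM in the *Dhps*ΔLysm libraries against 133 and 127 FPKM in the *Dhps* fl/fl libraries. Its log2 fold change was 0.21 (SE 0.05, unadjusted p = 0.0123), and limma gave an adjusted p of 0.561. *Atg4c*, a protease, was at 3.81 and 3.96 against 3.12 and 3.29 FPKM (0.27, SE 0.10, unadjusted p = 0.0482, adjusted p = 0.709 by limma). Fold changes moved with transcript length in these libraries. Among genes averaging 1 FPKM or more the median log2 fold change was 0.10 in the 20% with the shortest transcripts (up to 1372 bases), 0.06, 0.02 and -0.02 in the next groups of that size, and -0.06 in the longest. *Gabarap*, at 1351 bases, and *Map1lc3a* are among the shortest, and 3 more of the 7 genes lie in the next group. *Atg4c* (3178 bases), *Atg4b* (4186 bases) and *Atg4d* (5951 bases) lie in longer groups, *Atg4d* in the longest. These genes were above 0 too, and *Atg4c* had the largest fold change of the list. The part of length in these values was not tested.

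Regulators of TFEB comprise mTORC1, the Rag GTPases and Ragulator that recruit it to the lysosome, the folliculin complex, the TSC complex and calcineurin. Of 23 such genes, 22 were tested and *Rragb* was too low. Their median log2 fold change was 0.00, with 7 higher and 4 lower in *Dhps*ΔLysm without overlap (20.0% and 16.0% over all genes tested) and no adjusted p under 0.05. *Lamtor4*, a small subunit of Ragulator, had 59.1 and 57.0 FPKM in *Dhps*ΔLysm and 49.6 and 49.9 FPKM in *Dhps* fl/fl. It was the only one of the 22 with an unadjusted p under 0.05, a share close to the 4.72% of all genes tested that were higher at that threshold (log2 fold change 0.22, SE 0.05, unadjusted p = 0.00912, adjusted p = 0.534 by limma). Its transcript of 980 bases is also among the shortest. *Mtor* was at 5.26 and 4.29 against 4.81 and 5.54 FPKM, and *Flcn*, which encodes folliculin, at 7.44 and 7.43 against 7.67 and 8.47 FPKM. These 2 genes were chosen for their roles after their values were seen.

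TFEB target genes of the lysosome, 26 in number, are genes of enzymes and membrane proteins that the factors are known to switch on. Their median log2 fold change was 0.07, 21 were above 0 and 5 below it (19 to 20 above 0 under the other scalings), where 9368 of all genes tested were above 0 and 8578 below it. Without overlap, 10 were higher and 1 was lower in *Dhps*ΔLysm, where 20.0% and 16.0% of all genes tested were, and none had an adjusted p under 0.05 by limma. *Psap*, the precursor of the saposins and the most abundant, was at 372 and 381 against 345 and 376 FPKM, with overlap. At an unadjusted p under 0.05, 4 were higher and 1 was lower, where 4.72% and 2.28% of all genes tested were. Of the 4, *Cln3*, a lysosomal membrane protein, was at 30 and 26.8 against 22.9 and 25.3 FPKM (0.23, SE 0.09, unadjusted p = 0.0462, adjusted p = 0.702 by limma). The lower one was *Sgsh*, a sulfatase of heparan sulfate breakdown, at 6.20 and 6.17 against 7.09 and 7.87 FPKM (-0.27, SE 0.09, unadjusted p = 0.0318, adjusted p = 0.657 by limma). Macrophages are rich in lysosomes, and the summed macrophage markers given above were higher in both *Dhps*ΔLysm libraries, as were 7 of the 10 markers singly. Their part in the levels of the target genes was not tested. The median of the target genes was 0.03 without *Dhps* fl/fl replicate 1 and 0.12 without *Dhps* fl/fl replicate 2.

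**Figure D4:**
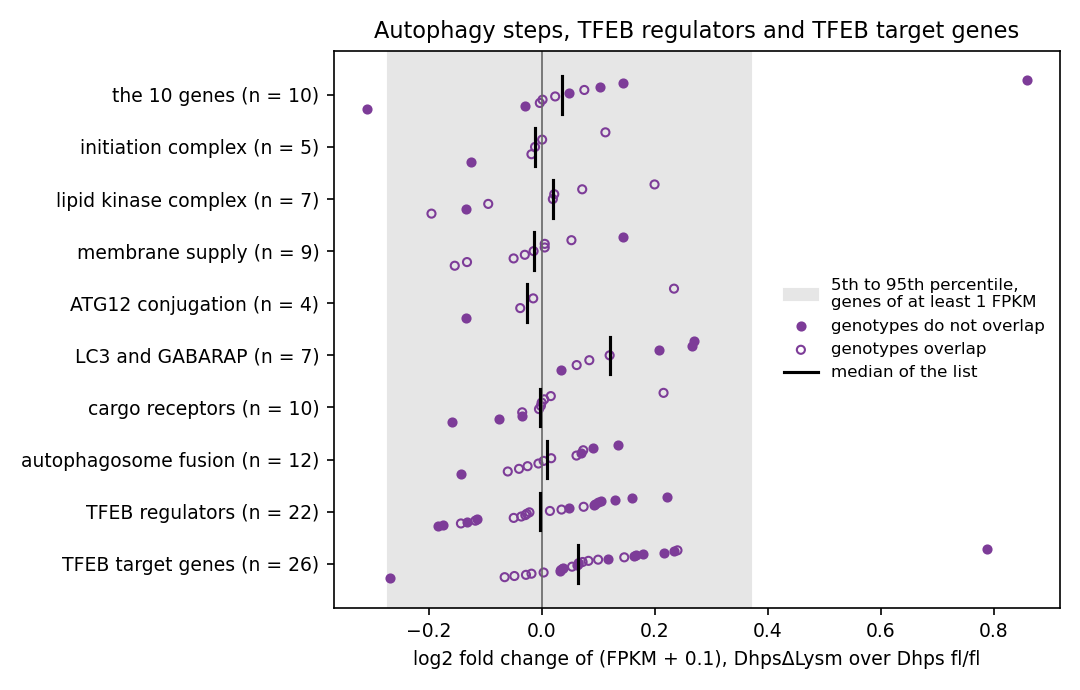
Log2 fold change of (FPKM + 0.1) in *Dhps*ΔLysm over *Dhps* fl/fl for the 10 genes, 7 lists of further autophagy genes, TFEB regulators and TFEB target genes. Filled points did not overlap between genotypes, open points did, black bars are list medians, and the grey band runs from the 5th to the 95th percentile of genes averaging 1 FPKM or more. List medians lie between -0.03 and 0.12. A point near 0.79, named after its value was seen, is *Atp6v0d2*, which was at most 0.21 FPKM.

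The core and longer form of the E-box were also sought in the promoter windows of the lists. Among the TFEB target genes, 13 of 19 with a window held the core and 8 the longer form, where 8.09% and 1.125% of all genes with a window did. The list holds known targets of factors that bind this element. The excess may follow from that choice, and it comes from sequence, not from these libraries. Among the 54 further autophagy genes, 7 of 45 with a window held the core (*Atg14*, *Bnip3*, *Nrbf2*, *Retreg1*, *Rubcn*, *Vps16* and *Vps33a*) and 3 the longer form. Across all genes tested, the 227 with the longer form in a window lay at a median of -0.02 on the log2 scale, with quartiles of -0.11 and 0.09, and the 10453 with a window and without it had a median of 0.01. An unadjusted p under 0.05 was found for 3.96% of the former and 5.62% of the latter. Genes with the longer form were higher without overlap in 15.4% and lower in 24.7% of cases, against 20.8% and 15.4% of the others. The core did not show this tilt. The 1206 genes with it had a median of 0.00 and were higher without overlap in 21.6% and lower in 17.0% of cases, against 20.6% and 15.5% of the 9474 without it. These shares describe the 4 libraries and were not tested.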

How the data were processed

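RNA was extracted with Trizol from PMN-MDSCs of neonatal spleen and sequenced on an Illumina NovaSeq. The authors trimmed reads with Cutadapt, aligned them with HISAT2 (mm10 per the submitters' processing notes) and calculated the deposited FPKM per gene with StringTie and ballgown. The annotation release and the use of strand are not given in the sources used here. Coordinates came from GENCODE M21 (GRCm38), which holds 28511 of the identifiers and lacks 74. FPKM depend on what the rest of a library holds, and scaling between libraries is not stated.

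The comparison of genotypes used log2(FPKM + 0.1) of the 17948 genes that averaged 0.1 FPKM or more. It was fitted in R 4.3.3 by limma 3.58.1, whose eBayes step allowed the variance to follow the mean, with Benjamini-Hochberg adjustment over all these genes and a threshold of 0.05. Fold changes on this scale understate those of low genes. The fit was tested on simulated data. Read counts were not given. Of low values of single-exon genes, 38.8% to 41.9% lay within 0.15 of a whole step, where 30% would by chance at a fixed depth. The depths were picked for the best fit to whole steps, which by itself raises that share. Whole reads could therefore not be recovered, and depths are approximate. Python 3.11.15 with pandas 2.3.3 was used for other steps.

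Named genes are the 10 genes, the hypusine genes, and from each list the most abundant gene, any gene with an adjusted p under 0.05, and up to 2 genes a direction with the largest fold change among those that had an unadjusted p under 0.05, averaged 1 FPKM or more and did not overlap. A gene that this rule names among the TFEB target genes is not reported here. Other genes are named with a remark that they were chosen after their values were seen, or as cell type markers, nearest patterns or motif matches. The 10 genes, the lists, the tests and this rule were chosen with earlier results of these data known. A gene was said not to overlap when both libraries of one genotype lay above both of the other. As alternatives, the pseudocount, the filter, the scaling and the variance model were changed, a replicate block was added, and each library was left out in turn.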

Additional observations from a re-analysis of the deposited data

How the results depend on the processing

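None of the 10 genes had an adjusted p under 0.05 by limma in the main comparison or in the 14 alternatives, with a smallest value between 0.541 and 0.946 (*Mitf* was not tested with a minimum of 1 FPKM). At an unadjusted p under 0.05 the main count was also 0. Over all genes, the count called was 1, and it was 0 with a pseudocount of 0.01, without a filter and with each gene modelled alone, 4 with a minimum of 1 FPKM, 2 after quantile normalization, and 0 to 0 on leaving out each library. With the replicate number as a block it was 0. The numbers are labels only: same-numbered libraries had a correlation of deviations of -0.057 over 10629 genes, the block changed no other call, and with 2 pairs it says little. On the log2 scale, the 10 genes lay at a median of 0.036. It was 0.005 with values scaled to the same sum, 0.02 after quantile normalization and 0.027 to 0.054 on leaving out each library. That of the 54 further autophagy genes was 0.002, -0.03 with the same sum and -0.026 to 0.039 on leaving out each library, and that of the TFEB target genes was 0.065, 0.033 with the same sum and 0.034 to 0.117. Signs near 0 turned. *Atg7* was at -0.03 with the same sum, -0.011 with size factors, -0.015 after quantile normalization and -0.071 to 0.074 on leaving out each library. *Tfe3* was at -0.008 with the same sum and -0.025 to 0.072, and *Map1lc3b* at -0.056 to 0.05. The cause was not tested, beyond the scaling itself. The median of all genes stayed between -0.02 and 0.03 in every alternative. With 2 libraries a genotype and no counts, small differences were not detectable, and larger ones could also be missed. Floxed *Dhps* itself did not pass, at a log2 fold change of -0.41 and an adjusted p of 0.629 by limma. Nor did *Mitf* at 0.86 (adjusted p 0.768 by limma). That none of the 10 genes was called therefore does not show that their levels were equal, and the intervals say more.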

Other observations

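Further regulators of autophagy, in a list of 21 genes written after the values of the other lists were seen, gave a median log2 fold change of 0.00, with 11 genes above 0 and 10 below it and no adjusted p under 0.05 by limma. *Pink1*, a kinase that marks damaged mitochondria for removal, was the only one with an unadjusted p under 0.05, a share close to the 4.72% of all genes tested that were higher at that threshold. Without overlap, 4 were higher and 3 lower in *Dhps*ΔLysm, where 20.0% and 16.0% of all genes tested were. *Pink1* measured 23.8 and 24.0 FPKM in *Dhps*ΔLysm against 19.7 and 20.6 FPKM in *Dhps* fl/fl, without overlap (log2 fold change 0.24, SE 0.06, unadjusted p = 0.0106, adjusted p = 0.547 by limma). *Trp53inp2*, which promotes autophagosome formation, was the most abundant, at 59.8 and 57.2 against 56.4 and 59.7 FPKM. *Nfe2l2*, the antioxidant transcription factor NRF2 whose repressor KEAP1 binds p62, was at 48.5 and 51.5 against 46.8 and 45.4 FPKM. *Lrrk2*, a kinase of endolysosomal membranes, was at 47.2 and 44.5 against 47.4 and 47.9 FPKM.

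*Tfec*, the remaining member of the MITF family and a gene of macrophages and osteoclasts, measured 0.73 and 0.78 FPKM in *Dhps*ΔLysm and 0.73 in both *Dhps* fl/fl libraries. It was thus as low as *Mitf* in level but varied less between libraries. *Zkscan3*, described as a repressor of lysosomal and autophagy genes, was at 5.78 and 5.88 against 6.05 and 5.95 FPKM, and *Foxo3*, an activator of autophagy genes, at 18.6 and 17.9 against 17.9 and 18.9 FPKM. All the genes named here besides *Pink1* and *Trp53inp2* were chosen for their roles after their values were seen.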
